A study of Rattus norvegicus with 6 samples.

Results

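The transcription factor gene Ppara and 7 enzyme genes of fatty acid oxidation (Cpt1a, Cpt2, Acadvl, Acadm, Hadha, Hadhb and Ehhadh) were measured in the kidneys of 6 rats. The 8 genes were chosen by symbol for their place in the pathway, and all 8 were found among the 17051 genes in the files. Each was represented by 1 transcript and had enough counts to be tested. The rats were male Sprague Dawley rats whose age is not given in the sources used here. The AL group (rats 61, 71 and 88) ate standard chow ad libitum, and the HD group (rats 64, 67 and 69) ate chow mixed with amino acids in the proportions of hemoglobin, a diet called pre-hyperammonemic. Both groups were on their diet for a week and then had surgery under isoflurane anesthesia. Rats were assigned to a diet at random and each library came from 1 rat, so *n* = 3 in each group throughout. The comparison asks whether the genes that burn fatty acids in the kidney were expressed differently on the amino acid diet.

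The proximal tubule makes most of its ATP by oxidizing fatty acids, and the enzymes form a chain. Long-chain fatty acids are tied to carnitine at the outer mitochondrial membrane by CPT1, returned to coenzyme A inside the mitochondrion by CPT2, and shortened there by acyl-CoA dehydrogenases and the mitochondrial trifunctional protein. Peroxisomes shorten very long chains by a parallel route. PPAR alpha is a nuclear receptor that is activated by fatty acids, binds DNA together with a retinoid X receptor, and switches on genes of both routes.

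The libraries held between 12499945 and 30466461 estimated counts, and the 8 genes together took between 0.241% and 0.277% of them. Of 12 listed markers of the proximal tubule, 9 were at 210 normalized CPM or more in every rat, that is, counts scaled to the normalized library size, with Slc34a1 (the main phosphate transporter) between 1365 and 3517. The other 3 were low, with Slc5a2 between 0.831 and 2.15 CPM, Slc4a4 between 0.794 and 5.43 CPM and Slc5a12 between 0.166 and 0.679 CPM. Because the tissue is a mixture, fewer cells of a type and less RNA per cell cannot be told apart in any value given here.

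None of the 8 genes passed the test for a difference between the diets. Their adjusted *P* values lay between 0.458 and 0.996 with edgeR's quasi-likelihood test, where 0 of the 11553 tested genes (0%) reached an adjusted *P* value of 0.05 or less. DESeq2 called 182 genes (1.58%) at that threshold, and again 0 of the 8. After TMM normalization, which sets the libraries to a common scale through the bulk of their genes, all 8 log2 differences (the HD to AL fold change on the log2 scale) were above 0, as were those of 51.3% of all tested genes, and the median of the 8 was 0.20. The median of all tested genes was 0.0067. With library size alone as the scale, 6 of the 8 were above 0, as were 4220 of the 11553 tested genes. The median was 0.12 against -0.074 for all genes. Ppara was the 1 gene of the 8 with an unadjusted *P* value below 0.05, and 4.66% of the tested genes were higher in the HD group by that measure.

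Per unit of transcript length, the 8 genes spanned a 279-fold range of levels. Values in TPM, a transcript level scaled for length, order them by their mean over the 6 rats. Acadm stood first at 863 TPM (782 to 908 over the rats), above 98.1% of all tested genes. Hadha followed at 269 TPM (251 to 299), Hadhb at 216 (185 to 254) and Acadvl at 207 (197 to 225). Hadha was above both Hadhb and Acadvl in every rat, although its range met that of Hadhb. Hadhb and Acadvl changed places, with Acadvl higher in rats 61 and 88. The range of Acadm lay clear of all others. Ehhadh at 106 TPM (90.7 to 143) and Cpt1a at 80.8 (65.7 to 96.0) overlapped as well. Cpt2 was at 28.8 TPM (24.4 to 32.6), apart from both neighbors. Ppara was by far the lowest at 3.09 TPM (1.82 to 5.01), above 16.8% of the tested genes.

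**Figure D1:**
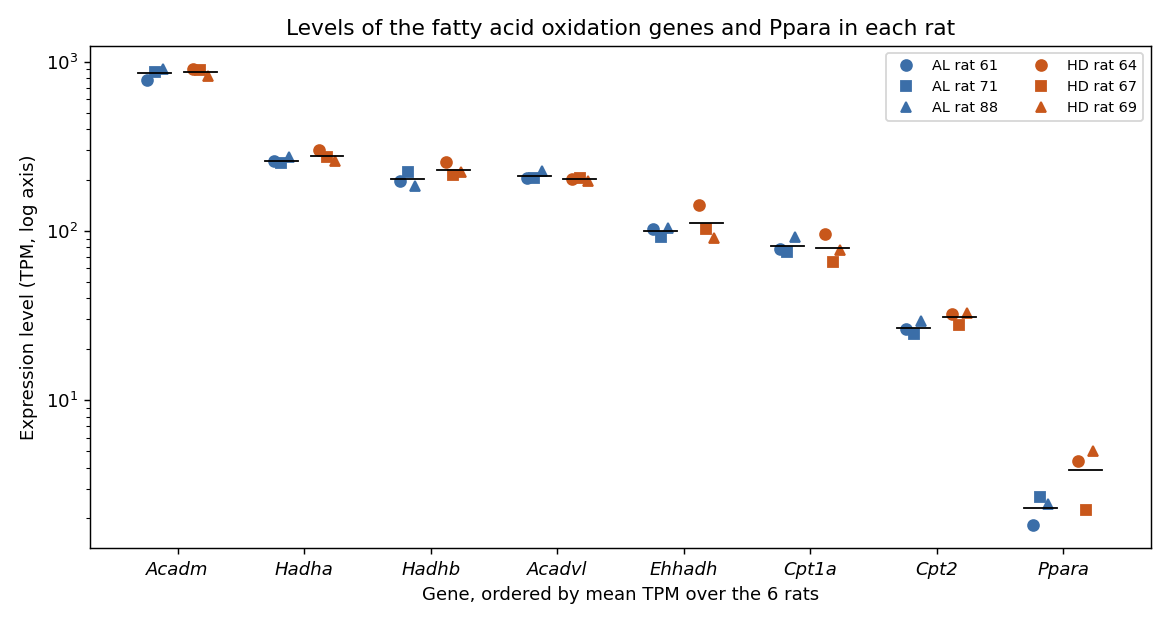
Expression level (TPM, log axis) of each of the 8 genes in each rat, with AL rats in blue, HD rats in orange and a horizontal bar at each group mean. Acadm lies between 782 and 908 TPM in the 6 rats and Ppara between 1.82 and 5.01, and the AL and HD points of every gene overlap on this scale.

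Ppara, the receptor gene, lies on chromosome 7 of rn5 from 126330833 to 126392748 and has 8 exons. Its level was 2.54, 3.10 and 3.04 CPM in AL rats 61, 71 and 88, and 5.94, 3.10 and 6.23 CPM in HD rats 64, 67 and 69. HD rats 64 and 69 stood above every AL rat, while rat 67 was level with the AL group, so the groups overlapped. The log2 difference was 0.81 (standard error, SE, 0.33, 95% interval 0.035 to 1.58), with an unadjusted *P* value of 0.0426 and an adjusted *P* value of 0.458 from edgeR's quasi-likelihood test. The two-sided exact permutation test gave *P* = 0.2, where 0.1 is the smallest value that 3 rats against 3 allow. The estimate rests on 32 to 195 counts per library. When rat 67 was left out the log2 difference was 1.07, and it was 0.69 without rat 64 and 0.63 without rat 69. When single rats were omitted, the unadjusted *P* value of Ppara was 0.00868 without rat 67 and between 0.0748 and 0.143 without any other rat, and it was 0.0826 with library size alone.

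The stretch upstream of Ppara is printed here because Ppara had the largest difference of the 8 genes. The sequence is from RefSeq (build GRCr8, plus strand, chr7:118712357-118712606), ends at the base before the annotated start, and has each GC box (GGGCGG or its reverse complement) in capitals.
Ppara upstream: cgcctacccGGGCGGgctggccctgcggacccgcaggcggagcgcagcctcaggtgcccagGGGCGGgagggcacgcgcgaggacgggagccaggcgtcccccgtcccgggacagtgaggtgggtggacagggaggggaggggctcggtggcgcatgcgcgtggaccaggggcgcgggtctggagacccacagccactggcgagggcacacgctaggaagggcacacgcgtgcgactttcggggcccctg

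Promoter windows from 250 bases before to 50 after the start were found for all 8 genes, and both strands were searched for 3 motifs. The GC box was present in 6 of the 8 windows, the exceptions being Cpt1a and Acadvl, and in 33.1% of all 33469 rat windows. The windows of Hadha and Hadhb share 200 bases that hold a GC box, so they are not separate counts. The nuclear receptor half-site AGGTCA was present in the windows of Hadhb and Acadvl and in 16.2% of all windows. The half-site followed by any base and by itself again, an exact form of the site that PPAR alpha binds with its partner, was in 0 of the 8. It was in 18 of all 33469 windows (0.0538%). A repeat this rare could hardly be met in 8 windows, so its absence does not show that these genes lack such sites. Inexact repeats and bases outside the windows were not searched.

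Neither gene of the carnitine steps passed the test. Cpt1a, which encodes the malonyl-CoA-sensitive entry enzyme, lies at 225437309 to 225497586 on chromosome 1 (rn5). Its level was 238, 188 and 250 CPM in AL rats 61, 71 and 88 and 283, 197 and 210 CPM in HD rats 64, 67 and 69. The groups overlapped throughout, and the log2 difference was 0.030 (SE 0.18, edgeR adjusted *P* = 0.976), with a 95% interval from -0.39 to 0.45. Cpt2, on chromosome 5 from 131353542 to 131370821, was at 41.8, 32.3 and 41.6 CPM in the AL rats and 50.2, 43.5 and 46.3 CPM in the HD rats, in the same order of rats. Every HD rat was above every AL rat on this scale, which held for 7.27% of all tested genes, but in TPM and with library size alone the groups overlapped. The log2 difference of Cpt2 was 0.28 (SE 0.14, edgeR adjusted *P* = 0.526; exact permutation test, *P* = 0.1).

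The acyl-CoA dehydrogenase genes encode the enzymes of the first step inside the mitochondrion. Acadvl, for very long chains, lies at 56364440 to 56369587 on chromosome 10 (rn5). Its level was 298, 248 and 291 CPM in AL rats 61, 71 and 88 and 287, 296 and 255 CPM in HD rats 64, 67 and 69. The fold between the diets was 1.00 with a 95% interval from 0.820 to 1.22 (edgeR adjusted *P* = 0.996), the narrowest interval of the 8 genes on the log scale. Acadm, for medium chains, on chromosome 2 from 278788485 to 278812656, was at 1053, 972 and 1089 CPM in the AL rats and 1181, 1193 and 990 CPM in the HD rats. HD rats 64 and 67 were above the AL rats and rat 69 lay among them, and the fold was 1.08 with a 95% interval from 0.872 to 1.34 (edgeR adjusted *P* = 0.834).

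Hadha and Hadhb encode the alpha and beta subunits of the trifunctional protein. In the deposited gene models they lie head to head on chromosome 6 of rn5, Hadhb on the minus strand from 37366083 to 37393658 and Hadha on the plus strand from 37400511 to 37439592. In the RefSeq promoter table of the newer build GRCr8 their annotated starts are 300 bases apart, so that their promoter windows share 200 bases (chr6:31907551-31907750). These bases are shown on the plus strand because they lie upstream of both subunit genes, with the GC box in capitals as it reads on this strand.
Hadha and Hadhb shared: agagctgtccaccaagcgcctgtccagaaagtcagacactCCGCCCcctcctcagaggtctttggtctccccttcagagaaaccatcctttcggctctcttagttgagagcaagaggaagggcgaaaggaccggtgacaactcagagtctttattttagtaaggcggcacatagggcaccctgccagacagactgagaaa

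Hadha was at 449, 364 and 422 CPM in AL rats 61, 71 and 88 and at 507, 471 and 404 CPM in HD rats 64, 67 and 69. HD rats 64 and 67 were the highest of the 6, and rat 69 fell within the AL range. The log2 difference was 0.16 (SE 0.14, edgeR adjusted *P* = 0.745). Hadhb was at 260, 245 and 217 CPM in the AL rats and 325, 279 and 262 CPM in the HD rats. Every HD rat was above every AL rat by a narrow margin, as in 7.27% of all tested genes. In TPM and with library size alone the groups again overlapped. Its log2 difference was 0.26 (SE 0.13, edgeR adjusted *P* = 0.531; exact permutation test, *P* = 0.1). The ratio of Hadhb to Hadha in TPM, which does not depend on the scale between libraries, averaged 0.779 ± 0.104 in the 3 AL rats and 0.831 ± 0.0404 in the 3 HD rats (± SD). The ratio ran from 0.682 to 0.888 over the rats and the groups overlapped (two-sided exact permutation test on log2 ratios, *P* = 0.6).

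Ehhadh encodes the peroxisomal bifunctional enzyme and lies at 86024803 to 86057811 on chromosome 11 (rn5). Its level was 221, 167 and 200 CPM in AL rats 61, 71 and 88 and 301, 219 and 175 CPM in HD rats 64, 67 and 69. Rat 64 alone stood above the AL group, and the HD rats spread 1.72-fold, more than those of the other enzyme genes. The log2 difference was 0.24 (SE 0.21, edgeR adjusted *P* = 0.752), and it was 0.0074 without rat 64. The ratio of Ehhadh to Hadha in TPM averaged 0.383 ± 0.0138 in the 3 AL rats and 0.401 ± 0.0684 in the 3 HD rats (± SD; exact permutation test, *P* = 0.9).

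The ratio of the inner to the outer carnitine enzyme was the 1 ratio of the 3 examined in which the groups were apart. Cpt2 to Cpt1a in TPM was 0.335, 0.327 and 0.318 in AL rats 61, 71 and 88 and 0.338, 0.421 and 0.421 in HD rats 64, 67 and 69. Rat 64 lay just above the AL rats and the other HD rats well above them. The log2 difference was 0.26 with *P* = 0.1 in the two-sided exact permutation test, the smallest value possible, which does not reach 0.05.

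**Figure D2:**
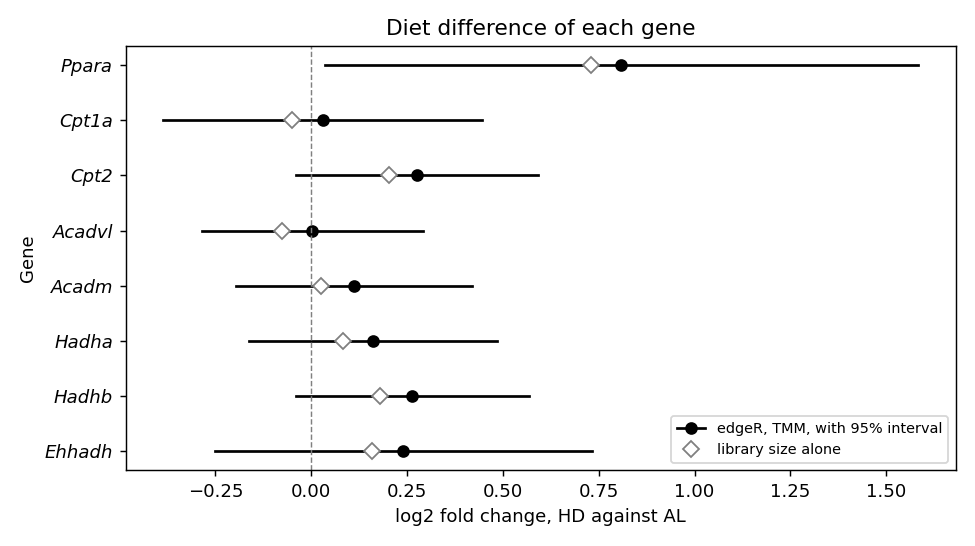
Log2 difference of the HD against the AL group for each gene, with filled points and 95% intervals from edgeR after TMM normalization and open diamonds for library size alone. The interval of Ppara runs from 0.035 to 1.58 and the intervals of the 7 enzyme genes include 0, with the diamonds of Cpt1a and Acadvl below 0.

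Levels of the 7 enzyme genes also differed between rats of 1 diet. HD rat 64 had the highest level in 5 of the 7 and AL rat 71 the lowest in 6 of the 7. Within the HD group rat 69 was the lowest in 5 of the 7. The mean of the 7 genes, as log2 level relative to the mean over rats, was 0.26 in rat 64 and -0.23 in rat 71, with the other 4 rats between -0.084 and 0.051. In TPM, rat 64 was the highest in 4 of the 7 genes and rat 71 the lowest in 2. Ppara followed another order, with rats 69 and 64 at 0.66 and 0.59 and rat 67 at -0.25.

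**Figure D3:**
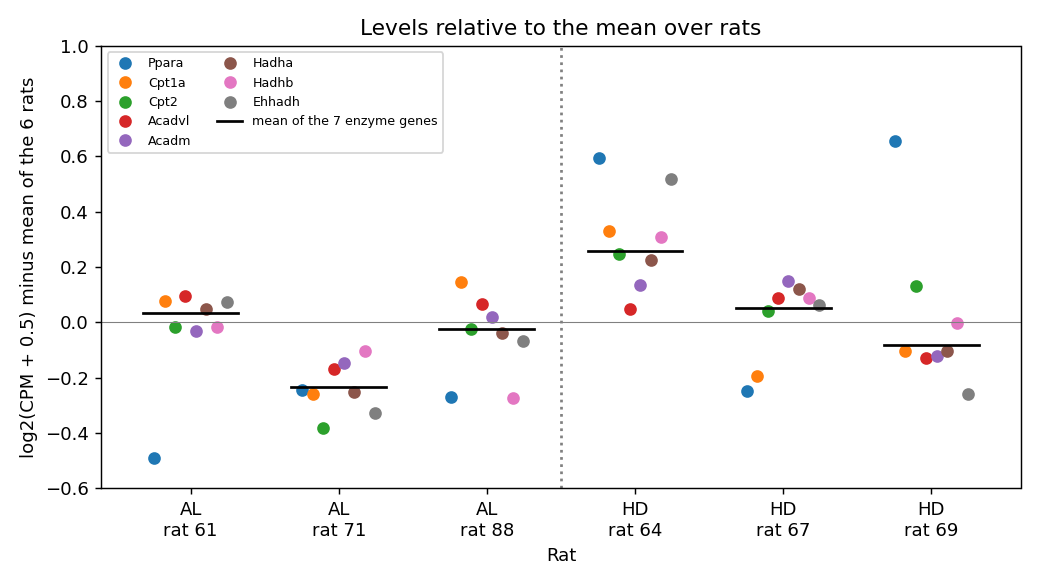
Log2(CPM + 0.5) of each of the 8 genes minus its mean over the 6 rats (vertical axis), by rat (horizontal axis), with a black bar at the mean of the 7 enzyme genes and a dotted line between the AL and HD groups. The black bar is at 0.26 in rat 64 and at -0.23 in rat 71, and Ppara reaches 0.66 in rat 69, where the bar is at -0.084.

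Genes were also ranked by Pearson's *r* with these profiles over the 6 rats, as a description over libraries that all genes share. The 5 tested genes most like Ppara were Kcnq1, Sod3, Ccny, Klf9 and Rasd2, with *r* from 0.978 to 0.990. Klf9, for example, was at 36.3, 37.9 and 42.8 CPM in AL rats 61, 71 and 88 and at 69.2, 37.2 and 78.1 CPM in HD rats 64, 67 and 69, with the same low rat 67. The 5 genes most like the mean of the enzyme genes were Slc51a, Trmt6, Klhl21, Prep and Mum1l1, with *r* from 0.988 to 0.997. No gene stood in both rankings. Rankings over 6 points among 11553 genes select high values of *r* by their construction.

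Levels of proximal tubule markers also differed between the rats. Of 12 listed markers 11 were tested, 10 were higher in the HD group, and the median log2 difference was 0.41. Slc5a12 was not tested. The summed markers ran from 24062 to 26924 CPM in the AL group and from 24848 to 32515 CPM in the HD group, with rat 71 lowest and rats 64 and 67 highest. In summed TPM rats 64 and 67 were again highest. Rat 61 was then lowest at 19356, and rat 71 was the highest AL rat at 20559. The summed level of the 8 genes was 9.51%, 9.22% and 10.0% of that marker sum in AL rats 61, 71 and 88 and 9.33%, 8.31% and 9.45% in HD rats 64, 67 and 69. These shares overlapped between the groups. The part of tubule content in their levels was not tested. Markers of other segments and cell types differed as well. All 4 thick ascending limb markers had values below 0 on the log2 scale (median -0.17), with sums of 5529 to 6266 CPM in the AL group and 3638 to 5872 CPM in the HD group. Summed collecting duct markers were between 1960 and 2019 CPM in the AL group and lower in every HD rat, between 1691 and 1869 CPM. In summed TPM these groups overlapped, at 1369 to 1734 in the AL group and 1198 to 1451 in the HD group. Slc12a3 of the distal convoluted tubule was at 27.5, 18.1 and 27.2 CPM in AL rats 61, 71 and 88 and at 287, 51.4 and 216 CPM in HD rats 64, 67 and 69 (log2 difference 2.93, edgeR adjusted *P* = 0.338). Summed podocyte markers ran from 47.2 to 115 CPM in the AL group and from 126 to 277 CPM in the HD group. In summed TPM they overlapped, at 13.54 to 39.05 in the AL group and 37.09 to 89.29 in the HD group. All 6 leukocyte markers had values below 0 on the log2 scale, and hepatocyte markers summed to at most 3.90 CPM in every rat. The part of these cell types in the levels of the 8 genes was not tested.

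**Figure D4:**
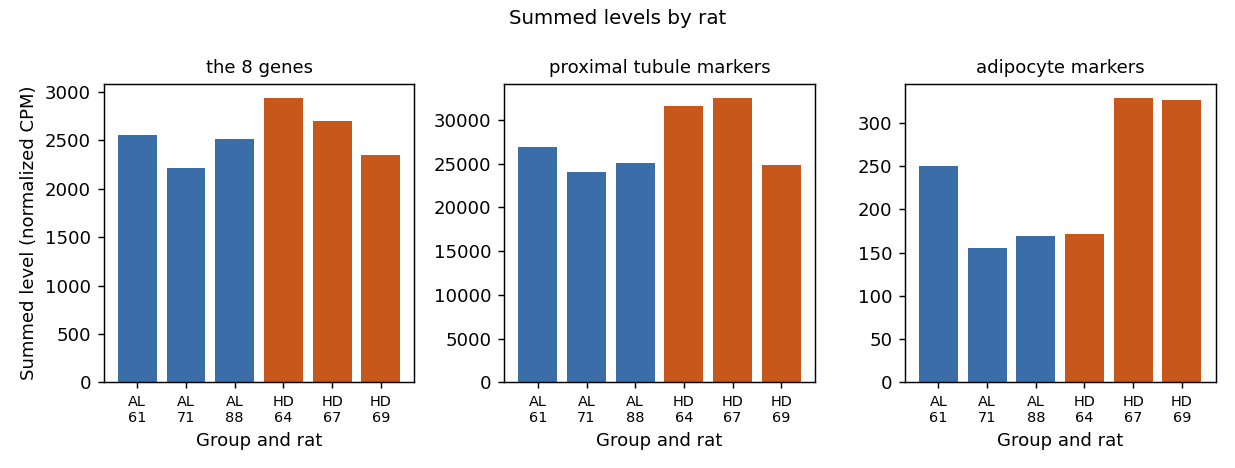
Summed level (normalized CPM, axes from 0) of the 8 genes, of 12 proximal tubule markers and of 8 adipocyte markers in each rat, with AL rats in blue and HD rats in orange. The sum of the 8 genes is 2941 CPM in rat 64 and 2219 in rat 71, and the adipocyte sum is 329 and 326 CPM in rats 67 and 69 against 155 to 250 in the other 4 rats.

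Of 105 other genes listed for fatty acid oxidation and PPAR alpha, 95 were tested. The HD values were higher for 69 and lower for 26 of them (median log2 difference 0.14), or for 55 and 40 with library size alone (median 0.055). Of all tested genes 51.3% were higher after TMM. With library size alone 4220 were higher and 7333 lower, which is the background for every list count given on that scale. None passed the adjusted threshold in edgeR. At an unadjusted *P* value below 0.05 there were 9 genes, or 9.47%, against 10.6% of all tested genes, a share near the background. Of these, 7 had values above 0 on the log2 scale and 2 below. In DESeq2, 2 genes passed the adjusted threshold, as did 1.58% of all tested genes. Both were higher in the HD group. Rxrg, 1 of them, passed the count filter only through HD rat 69.

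In the list for peroxisomal beta-oxidation, Pecr, which encodes a peroxisomal enoyl-CoA reductase, was among the genes with lower HD values. It went from 223 ± 23.4 to 170 ± 14.6 CPM (mean ± SD of 3 rats each), a log2 difference of -0.39 (SE 0.13, edgeR adjusted *P* = 0.406). Every HD rat was below every AL rat, as in 7.01% of all tested genes. The peroxisomal list had 19 tested genes, 17 of them higher on the HD diet (median 0.15). With library size alone 12 were higher and 7 lower. Decr2 (peroxisomal dienoyl-CoA reductase), had a log2 difference of 0.35 and an adjusted *P* value of 0.473 from edgeR. Ehhadh, of the same route, had a log2 difference of 0.24, and its HD rats 67 and 69 lay within the AL range.

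In mitochondrial beta-oxidation 12 of the 14 tested genes were higher in the HD group and the median log2 difference was 0.26, with 11 higher under library size alone. Echs1, the short-chain enoyl-CoA hydratase, was at 473, 408 and 422 CPM in AL rats 61, 71 and 88 and at 622, 511 and 558 CPM in HD rats 64, 67 and 69. Its log2 difference was 0.38 (SE 0.13, edgeR adjusted *P* = 0.406). Hadh, the dehydrogenase for shorter hydroxyacyl chains, went from 309 ± 22.3 to 378 ± 27.0 CPM (mean ± SD of 3 rats each), with a log2 difference of 0.29 (edgeR adjusted *P* = 0.454). In both genes the groups did not overlap on any of the 3 scales. In CPM alone, every HD rat was above every AL rat in 3 of the 14 genes and in 7.27% of all tested genes. The share over all genes on the 3 scales together was not determined. Acadsb, for short branched chains, had a log2 difference of 0.48 (edgeR adjusted *P* = 0.482) and overlapping groups.

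**Figure D5:**
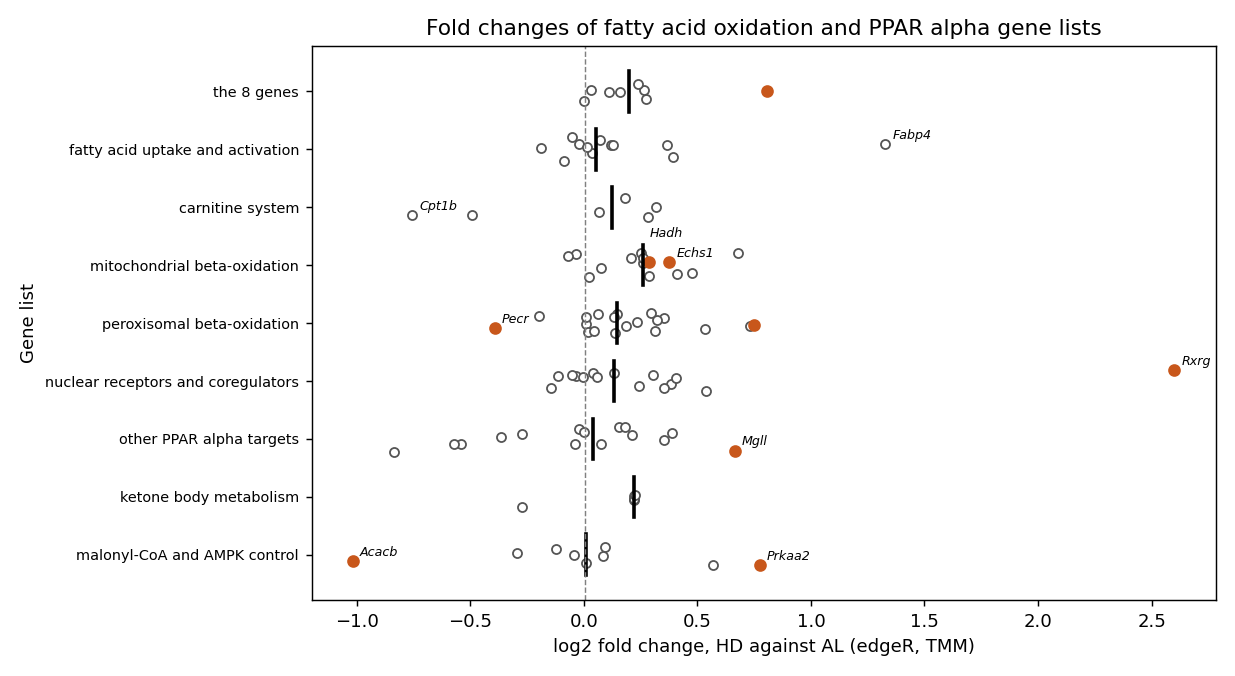
Log2 difference of the HD against the AL group (horizontal axis) for the 8 genes and each list of related genes (rows), with filled points for an unadjusted *P* value below 0.05, a black bar at each list's median and a dashed line at the median of all tested genes. Rxrg stands at 2.60 and Acacb at -1.02; Ucp3, at 0 counts in 3 rats, is left out of the points.

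The carnitine and uptake lists were mixed. Cpt1b, the muscle-type CPT1, was at 49.1, 37.9 and 41.8 CPM in AL rats 61, 71 and 88 and at 11.2, 23.9 and 40.4 CPM in HD rats 64, 67 and 69. Its log2 difference was -0.76 (SE 0.40, edgeR adjusted *P* = 0.553), and rat 69 overlapped the AL group in CPM, though in TPM and with library size alone every HD rat was below the AL rats. Crat, the carnitine acetyltransferase, had a log2 difference of 0.28 (edgeR adjusted *P* = 0.505) and Tmlhe, of carnitine synthesis, 0.32 (adjusted *P* = 0.620). Among 12 tested genes of uptake and activation 8 were higher and 4 lower, with a median of 0.055. The fatty acid transport protein gene Slc27a1 had 0.39 (edgeR adjusted *P* = 0.493) and the acyl-CoA synthetase gene Acsl3 0.12 (adjusted *P* = 0.803).

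Fabp4, the fatty acid-binding protein of adipocytes and endothelium, was at 53.6, 29.2 and 33.3 CPM in AL rats 61, 71 and 88 and at 3.05, 155 and 131 CPM in HD rats 64, 67 and 69. Rats 67 and 69 were far above the AL group and rat 64 far below it. Ucp3, a mitochondrial carrier of muscle and brown fat, had 0, 0 and 2 counts in the AL rats and 0, 33 and 67 counts in the HD rats. It thus passed the count filter only through HD rats 67 and 69. All 8 listed adipocyte markers were tested and all 8 had log2 differences above 0, with sums of 155 to 250 CPM in the AL group and 172 to 329 CPM in the HD group. Ucp1, which defines brown fat, was at 4.68, 0.166 and 0.397 CPM in the AL rats and 0.339, 35.7 and 46.8 CPM in the HD rats. Retn was at 0 in rat 64 and Lep at 0 in rat 71. Cidec, with 128 to 190 CPM in every rat, made up most of the sums. The part of adipose tissue in the values of Fabp4 and Ucp3 was not tested.

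Among 15 tested nuclear receptors and coregulators 10 were higher in the HD group (median log2 difference 0.13), and 8 with library size alone. Rxrg, the gamma form of the PPAR partner, had 6, 7 and 4 counts in AL rats 61, 71 and 88 and 28, 28 and 97 counts in HD rats 64, 67 and 69. It was at 0.376 ± 0.106 CPM in the AL group and 2.29 ± 0.854 CPM in the HD group (mean ± SD of 3 rats each), with a log2 difference of 2.60 (SE 0.49), an adjusted *P* value of 0.334 from edgeR and 0.0104 from DESeq2. Only HD rat 69 had at least 30 counts, so Rxrg entered the test through the group in which it was high. Its *P* values are therefore no independent support for a difference. The alpha form Rxra, at 6.85 ± 2.67 and 10.0 ± 3.84 CPM (mean ± SD of 3 rats each), overlapped between the groups (edgeR adjusted *P* = 0.675). Esrra, which encodes a receptor that drives mitochondrial genes, had a log2 difference of 0.24 (edgeR adjusted *P* = 0.584).

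The list of other PPAR alpha targets was split, with 9 of 16 tested genes higher and 7 lower in the HD group and a median of 0.038. With library size alone it was 7 against 9, where all tested genes had 4220 against 7333. Pdk4 and Angptl4, targets that respond to PPAR alpha in many tissues, had log2 differences of -0.57 (edgeR adjusted *P* = 0.755) and -0.84 (adjusted *P* = 0.643). They lie outside the naming rule and are named here after their values were seen. Both come from the 7 lower genes, while 9 of the 16 were higher. Pdk4 ran from 3.43 to 13.6 CPM in the AL group and from 3.82 to 8.08 CPM in the HD group. Angptl4 ran from 2.88 to 15.4 CPM and from 3.90 to 5.84 CPM. Both overlapped, with AL rat 88 highest and AL rat 71 lowest. Mgll, the monoacylglycerol lipase, was at 117, 147 and 118 CPM in AL rats 61, 71 and 88 and at 288, 178 and 139 CPM in HD rats 64, 67 and 69, so rat 69 overlapped the AL group. Its log2 difference was 0.66 (SE 0.26, edgeR adjusted *P* = 0.441). Ucp2 had -0.36 (edgeR adjusted *P* = 0.566). Reads of the near-identical Cyp4a, Acot and Acaa1 copies may have been divided between genes, so single values of these families are uncertain and none is given.

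Ketone body enzymes had 4 of 5 genes higher in the HD group and a median log2 difference of 0.22, with values of 0.22 for Acat1, Oxct1 and Bdh1 and adjusted *P* values of 0.525, 0.638 and 0.639 from edgeR. Malonyl-CoA, the inhibitor of CPT1, is made by acetyl-CoA carboxylases. Acacb, the mitochondrial form, was at 102, 47.6 and 75.7 CPM in AL rats 61, 71 and 88 and at 22.7, 37.2 and 50.9 CPM in HD rats 64, 67 and 69. Rats 64 and 67 were below every AL rat and rat 69 was just above the lowest, though in TPM it too was below them. The log2 difference was -1.02 (SE 0.35, 95% interval -1.83 to -0.20), with an adjusted *P* value of 0.406 from edgeR and 0.101 from DESeq2. Acaca, the cytosolic form, had a log2 difference of 0.57 (edgeR adjusted *P* = 0.638). Prkaa2, a catalytic subunit of the kinase AMPK that phosphorylates both carboxylases, went from 6.68 ± 1.49 to 11.5 ± 3.38 CPM (mean ± SD of 3 rats each), with a log2 difference of 0.77 (SE 0.28, edgeR adjusted *P* = 0.409). Of the 9 tested genes of this list 5 were higher and 4 lower, with a median of 0.012.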

How the data were processed

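Poly(A)-selected kidney RNA was sequenced by the authors as single-end reads and quantified with RSEM 1.1.15 (default parameters, University of California Santa Cruz gene definitions, rn5). Per transcript and rat, the authors deposited estimated counts, not normalized, and TPM, scaled to transcript length. Filters on the reads are not given in the sources used here, and posterior and FPKM columns were not used. Estimated counts were summed per gene and rounded. Genes with at least 30 counts in 1 rat were tested with edgeR 4.0.16 (quasi-likelihood test, TMM) in R 4.3.3, with diet as the only factor and Benjamini-Hochberg adjustment over all tested genes. The standard error is the absolute log2 fold change divided by the square root of F. CPM are counts scaled to the TMM-normalized library size. Exact permutation tests used log2(CPM + 0.5) or log2 TPM ratios. DESeq2 1.42.0, the tool of the study, other scalings, other count minimums and leaving out rats were alternatives. The fits were tested on simulated data. The 8 genes and the lists were chosen with earlier results of these data known. Named genes were, per list, those with an unadjusted *P* value below 0.05, filled up to 3 by the smallest *P* values, and the 5 genes most like each profile; 1 gene that the rule names is not reported here. Tables and plots used Python 3.11.15, pandas 2.3.3, scipy 1.17.1 and matplotlib 3.10.9.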

Additional observations from a re-analysis of the deposited data

How the results depend on the processing

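No paired analysis was possible because the labels give every rat a number of its own. Across 14 alternatives to the edgeR test, 0 of the 8 genes reached an adjusted *P* value of 0.05 or less, and the adjusted *P* value of Ppara ran from 0.223 to 0.958. Leaving out HD rats 67 and 69 together was chosen after seeing the data. Of the 8 genes, 6 kept their direction throughout. The log2 difference of Cpt1a was -0.0493 with library size alone and between -0.15 and 0.13 with each rat left out (-0.0826 without rat 71, -0.15 without rat 64). That of Acadvl was -0.0058 with DESeq2, -0.0059 with its local dispersion fit, -0.0058 with RLE normalization, -0.0770 with library size alone, -0.0147 with at least 10 counts in every rat, and between -0.0767 and 0.0699 with each rat left out (-0.0767 without rat 71, -0.0187 without rat 64, -0.0405 without rat 67). The log2 difference of the Ehhadh to Hadha ratio was between -0.0809 and 0.15 with each rat left out, below 0 without rat 64. Without rats 67 and 69, Fabp4 stood at -3.66 and Acaca at -0.21. The causes of these shifts were not tested. Of the 8 genes, the number higher at an unadjusted *P* value below 0.05 was 2 with the local fit (Ppara and Hadhb), 0 with library size alone, 0 to 1 with each rat left out (Ppara without rat 67, Hadhb without rat 69) and 1 without rats 67 and 69 (Ehhadh). Of the other pathway genes, 2 passed the adjusted threshold with DESeq2 and 3 with its local fit, which added Pecr (adjusted *P* = 0.0398). Rxrg and Ucp3 had too few counts for a value with at least 10 counts in every rat and without rats 67 and 69, and Rxrg also without rat 69. At an unadjusted *P* value below 0.05, 12 were higher with the local fit and 3 (without rat 88) to 15 (without rat 61) with each rat left out, with 13 without rat 69, while 1 (without rat 88, 64 or 67) to 4 (without rat 69) were lower, and 5 without rats 67 and 69. Over all genes, DESeq2 called 182 and its local fit 436, against 0 with edgeR, which had 1224 at an unadjusted *P* value below 0.05. That number over all genes, in either direction, moved with the setting as well. It was 1802 with the local fit and 1164 with library size alone. With each rat left out it ran from 606 (without rat 88) to 1744 (without rat 69), with 1722 without rat 61. With 3 rats a group and 32 to 195 counts, a difference in Ppara of the size seen was not resolved.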
